A study of Sus scrofa with 6 samples.

Results

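The ovary of anestrous sows was compared with the ovary of estrous sows, gene by gene, over 19465 genes in 2 RNA sequencing libraries, 1 for each state, out of 6 libraries in a study that also sampled hypothalamus and pituitary. All genes of the ovary table were taken. The sows were Landrace x Large White crosses in their first parity. Per the labels, 3 sows were in normal estrus and 3 were anestrous with inactive ovaries, and whole ovaries were frozen for RNA. The sources used here give neither the age of the sows nor the time of sampling, and do not say if the libraries were made from RNA pooled over the 3 animals. With 1 library per state there was no spread between replicates and no test between the states: every difference given here is a difference between these 2 libraries. Values of single genes are whole reads, followed by a fold of normalised read counts (reads divided by a size factor of 1.04 for estrus and 0.961 for anestrus). The log2 fold is that of the anestrous over the estrous count after adding 1 to each. The 95% intervals of folds are exact conditional binomial intervals without an added count. They cover counting error only, not the difference between sows. A gene is counted as 2-fold higher or lower where its log2 fold is at least 1 in size, and likewise for 4-fold.

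A cycling ovary carries growing follicles. Theca cells around each follicle turn cholesterol into androgen under luteinising hormone, and granulosa cells inside turn androgen into estradiol under follicle-stimulating hormone and surround the oocyte. Follicles that stop growing and old corpora lutea are broken down by apoptosis, phagocytes and matrix proteases. The study addressed which genes of the reproductive axis differ between sows that return to estrus after the first litter and sows that do not.

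The estrous library held 15487425 reads and the anestrous library 16436816 reads, and 15972 genes had a read in at least 1 of them. Markers of the labelled tissue were present in both: the granulosa transcription factor FOXL2 had 634 reads in estrus and 180 in anestrus, and the zona pellucida gene ZP3 had 1033 and 238. Among the 10902 genes whose mean normalised count reached 50, 1343 were 2-fold higher in anestrus (12.3%) and 867 2-fold lower (7.95%), 20.3% in either direction. Scaled to equal library totals, log2 folds moved by up to -0.20 (less for genes with few reads) and the split became 1033 higher and 1242 lower, so that 45.4% of the genes past 2-fold were higher in place of 60.8%. The same count gave 2.34% of 11390 genes in the hypothalamus and 3.11% of 10720 genes in the pituitary. At 4-fold, 395 ovary genes were higher (3.62%) and 162 lower (1.49%). Differences were frequent among the most abundant genes and also among the least abundant genes counted. Of 209 genes whose mean reached 10000, 42 were 2-fold higher (20.1%) and 16 2-fold lower (7.66%). Of 2886 genes with a mean from 50 to 200, 463 were higher (16.0%) and 366 lower (12.7%). Between 200 and 1000 the shares were 10.1% and 6.63%, and between 1000 and 10000 they were 11.8% and 5.55%. The authors' deposited table gives an adjusted p of at most 0.05 to 108 ovary genes, 93 of them higher in anestrus and 15 lower. Abundant genes with large folds lay outside that set (STAR, CYP17A1, LYZ, TIMP1, FN1 and CLU) and inside it (MSMB, MMP13, TNC and CXCL14). How many lay on each side was not counted.

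**Figure D1:**
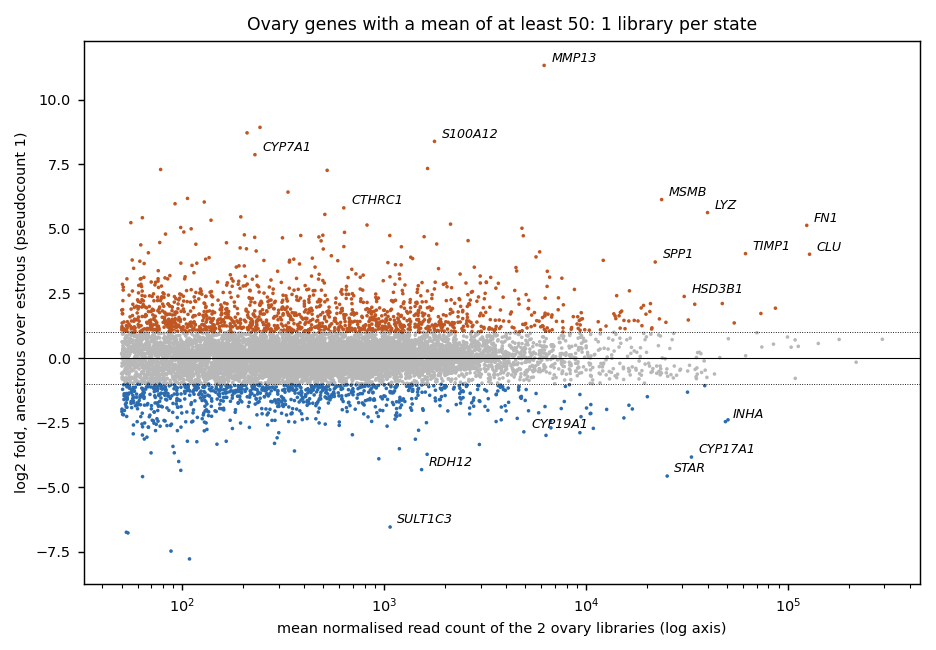
Log2 fold (anestrous over estrous, vertical axis) against the mean normalised read count of the 2 ovary libraries (horizontal log axis). Each point is 1 of 10902 genes with a mean of at least 50, in orange where 2-fold higher (1343 genes), in blue where 2-fold lower (867 genes), with dotted lines at 2-fold. MMP13 stands highest at 11.32, and abundant genes lie far from 0 on both sides, among them FN1 and CLU above and STAR and CYP17A1 below.

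The genes with the most reads differed between the states. In estrus the first 10 by reads included the elongation factor EEF1A1 (239112 reads), the collagen gene COL1A2 (143153), the protease inhibitor SERPINE2 (88202) and the inhibin alpha subunit INHA (86346). In anestrus the first 10 held clusterin (CLU), fibronectin (FN1) and prosaposin (PSAP), which were outside the first 10 in estrus. CLU, a secreted chaperone, had 15486 reads in estrus and 231447 in anestrus, 16.2-fold higher (15.9 to 16.5). PSAP, the precursor of the saposins that help lysosomes degrade sphingolipids, had 37498 and 131915 reads, 3.81-fold higher (3.77 to 3.86). These are read numbers, which also depend on transcript length.

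Genes of the steroid-producing follicle were mostly lower in the anestrous library. Of 12 theca and androgen synthesis genes whose mean reached 10, 9 were 2-fold lower and 1 was higher, with a median log2 fold of -1.25. Of 16 granulosa genes, 10 were 2-fold lower and none higher, with a median of -1.32. Over all 13193 genes at that floor, 10.7% were 2-fold lower, 13.6% 2-fold higher, 50.4% lay above 0 and the median was 0.01. Theca, granulosa and oocyte lists together held 47 genes, of which 31 were 2-fold lower. In a bulk tissue library, fewer cells of a type and less RNA per cell cannot be told apart.

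LHCGR, the luteinising hormone receptor, had 1987 reads in estrus and 385 in anestrus. INSL3, the insulin-like peptide of theca cells, had 6243 and 1549 reads, 3.72-fold lower (3.52 to 3.93). AMHR2, the receptor of anti-Müllerian hormone, had 1071 and 162 reads, 6.10-fold lower (5.17 to 7.24). The orphan nuclear receptor NR5A2, which drives steroidogenic genes in granulosa cells, had 4338 and 1206 reads, 3.32-fold lower, and was also 2-fold lower in hypothalamus (57 and 3 reads) and pituitary (11 and 4 reads). So receptors, a hormone and a transcription factor of the follicle lay on the same side as STAR (50383 and 1966 reads). The enzymes CYP17A1 (64699 and 4202) and CYP19A1 (8994 and 1148) lay there too. HSD3B1, which makes progesterone from pregnenolone, was the theca gene 2-fold higher, with 10245 reads in estrus and 49378 in anestrus.

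The electron carriers and cofactors that serve those enzymes split by gene. Of 17 genes on that list, 3 were 2-fold lower, 3 were 2-fold higher and 11 in between, and the median log2 fold was 0.29. CYB5A, the cytochrome b5 that raises the lyase activity of CYP17A1, had 19635 reads in estrus and 2752 in anestrus, 6.58-fold lower (6.33 to 6.85). FDXR, which passes electrons to mitochondrial P450 enzymes, had 6312 and 1062 reads, 5.48-fold lower (5.14 to 5.86). SULT2A1, a sulfotransferase of steroids, had 135 and 17 reads, 7.33-fold lower (4.41 to 12.9). ALAS1, which is not on that list, supplies heme, which P450 enzymes need. It had 12087 reads in estrus and 1717 in anestrus, 6.496-fold lower (6.18 to 6.84). On the other side were the mitochondrial translocator protein TSPO (1036 and 2702 reads, 2.83-fold higher), the lysosomal cholesterol carrier NPC2 (6681 and 20206 reads, 3.28-fold higher) and the steroid reductase SRD5A1 (335 and 658 reads, 2.13-fold higher).

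**Figure D2:**
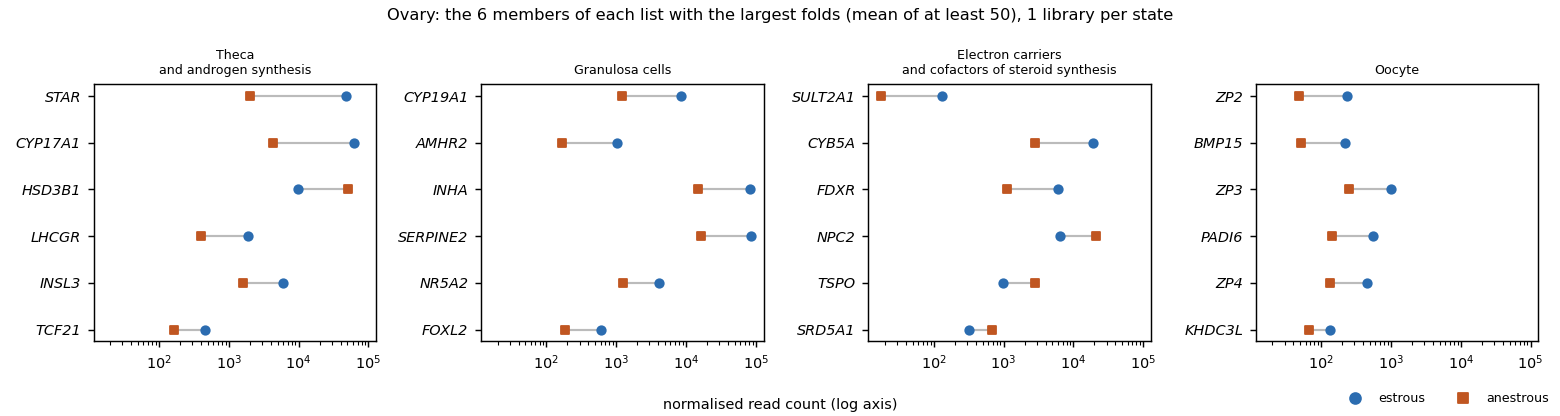
Normalised read counts (horizontal log axis) in the estrous (blue circles) and anestrous (orange squares) ovary library for the 6 genes with the largest folds in each of 4 lists: theca and androgen synthesis, granulosa cells, steroid cofactors, and oocyte. The anestrous point lies left of the estrous point for every gene drawn except HSD3B1, NPC2, TSPO and SRD5A1.

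Cholesterol synthesis genes were lower in anestrus. Of 22 genes, 10 were 2-fold lower, none 2-fold higher, and 19 of the 22 lay below 0, with a median log2 fold of -0.90. MSMO1 and FDPS, enzymes of the sterol and the isoprenoid section, had 3463 and 774 reads and 2838 and 831 reads. The high-density lipoprotein receptor SCARB1 had 16582 and 4010 reads, 3.82-fold lower. Genes that store or export cholesterol stood on the other side: of 16 genes for efflux, storage and the liver X receptor, 10 were 2-fold higher and 1 was 2-fold lower, with a median of 1.31. Of these 16 genes, 5 are also on the list of lipid-laden macrophage genes, of which 16 of 18 were 2-fold higher, and the part of macrophages in this difference was not tested. The exporter ABCG1 had 91 reads in estrus and 388 in anestrus, and the receptor gene NR1H3 had 1087 and 3464. LIPA, the lysosomal acid lipase that frees cholesterol from its esters, had 7075 and 20215 reads. CYP7A1, the rate-limiting enzyme of bile acid synthesis, had 1 read in estrus and 439 in anestrus, a ratio of 476 with a counting interval of 84.9 to 18833.

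Genes of retinoid handling and sulfonation were among the 15 lowest. SULT1C3, a cytosolic sulfotransferase, had 2205 reads in estrus and 21 in anestrus, 96.9-fold lower (63.2 to 157). RDH12, a retinol dehydrogenase, had 3039 and 140 reads, 20.03-fold lower (16.9 to 23.9). CRABP1, which binds retinoic acid in the cytosol, had 189 and 10 reads, 17.4-fold lower (9.28 to 37.0). The retinoid list as a whole had 5 of 14 genes 2-fold lower and 1 higher, with a median of -0.76. ALDH1A2, which makes retinoic acid, had 6732 and 1505 reads, 4.13-fold lower, and the reductase RDH11 had 7414 and 2325. The retinol uptake receptor STRA6 was the member 2-fold higher in anestrus, with 895 and 1901 reads.

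Other genes among the 15 lowest included CITED1, a coactivator of transcription, with 3159 reads in estrus and 220 in anestrus, 13.3-fold lower (11.6 to 15.3). CDO1, the dioxygenase that commits cysteine to breakdown, had 2277 and 184 reads, 11.4-fold lower (9.82 to 13.3). TACR3, the neurokinin B receptor, had 692 and 52 reads, 12.3-fold lower (9.26 to 16.6). The authors' deposited table gives adjusted p-values of 0.00216 to CITED1, 0.00433 to CDO1 and 0.0117 to TACR3, and, of the genes named next, 0.0458 to C1QL4, 0.213 to AGR2, 0.148 to SLC44A4 and 0.215 to LVRN. Fewer reads lay behind the secreted C1q-like protein C1QL4 (196 and 8 reads), the protein disulfide isomerase AGR2 (136 and 9), the choline transporter family member SLC44A4 (177 and 12) and the aminopeptidase LVRN (172 and 14), which were 22.6-, 13.9-, 13.6- and 11.3-fold lower.

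Oocyte genes were lower in the anestrous library. Of 19 at a mean of 10 or more, 12 were 2-fold lower, none 2-fold higher and 18 below 0, with a median log2 fold of -1.74. ZP4, a glycoprotein of the zona pellucida, had 468 reads in estrus and 129 in anestrus, 3.35-fold lower (2.75 to 4.10). PADI6, a component of the cytoplasmic lattices of the oocyte, had 583 and 138 reads, 3.90-fold lower (3.23 to 4.73). ZP2 had 241 and 46 reads and the oocyte growth factor BMP15 had 228 and 49. The surface epithelium list had 10 of 13 genes 2-fold lower and 2 higher, with a median of -1.51. KRT8, a keratin, had 483 and 107 reads, 4.17-fold lower, and the transcription factor LHX9 had 248 and 66 reads. EPCAM, an adhesion molecule of epithelia, had 75 and 346 reads, 4.999-fold higher (3.88 to 6.51), and CLDN4, a claudin of tight junctions, had 25 and 100.

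Genes of luteal cells did not move one way. Of 8 at a mean of 10 or more, 3 were 2-fold higher and 3 were 2-fold lower. Among these, HSD3B1 on the higher side and STAR on the lower side are also on the theca list. PTGFR, the receptor through which prostaglandin F2 alpha ends the life of the corpus luteum, had 701 reads in estrus and 2110 in anestrus, 3.26-fold higher (2.99 to 3.56). OXTR, the oxytocin receptor, had 18 and 146 reads, 8.79-fold higher (5.37 to 15.2). HSD11B2, which inactivates cortisol, had 162 and 40 reads, 3.74-fold lower. Among 17 transcription factors and coregulators of steroid cells, 7 were 2-fold lower and 1 higher. CEBPA, the higher of these, had 62 and 305 reads, 5.33-fold higher (4.05 to 7.12). GATA6 had 4588 and 1815 reads on the lower side. Of 21 steroid and nuclear hormone receptors, 6 were 2-fold lower and 2 higher. The vitamin D receptor VDR had 79 and 1975 reads, 27.1-fold higher (21.6 to 34.4).

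Leukocyte and phagocyte genes were higher in the anestrous library. Across 5 lists of macrophage, phagocyte oxidase, pattern recognition, leukocyte and MHC class II genes, 75 of 86 genes were 2-fold higher and 2 were 2-fold lower, with a median log2 fold of 1.96. The summed normalised count of the macrophage list went from 26572 in estrus to 127841 in anestrus, and LYZ made up most of the second sum. LYZ, lysozyme, had 1648 reads in estrus and 75250 in anestrus, 49.5-fold higher (47.1 to 52.0). CSF1R, the receptor of the macrophage growth factor, had 176 and 2439 reads, 15.02-fold higher (12.9 to 17.6). It was also higher in the other tissues, with a log2 fold of 1.70 in hypothalamus (421 and 1330 reads) and 1.49 in pituitary (72 and 193 reads), against 3.90 in the ovary. SPI1, the transcription factor of the myeloid lineage, had 821 and 4432 reads, 5.85-fold higher (5.43 to 6.31). Each had reads in the estrous library too.

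Not all macrophage genes were higher. Of the 22 on the list, 16 were 2-fold higher and 1 was lower. The complement genes C1QA (5114 reads in estrus and 4130 in anestrus) and C1QC (7608 and 7294) and the mannose receptor MRC1 (1204 and 1288), chosen after their values were seen, lay near 0 on the log2 scale. The folate receptor FOLR2, chosen likewise, was the member 2-fold lower, with 2043 and 777 reads. The list of lipid-laden macrophage genes had 16 of 18 2-fold higher and 1 lower, with a median of 1.76. OLR1, a receptor for oxidised lipoprotein, had 155 and 1861 reads, 13.01-fold higher (11.04 to 15.4). TREM2, a lipid-sensing receptor of macrophages, had 226 and 1295 reads, 6.21-fold higher. CHI3L1, a chitinase-like secreted protein, had 321 and 3274 reads, 11.1-fold higher. SPP1, osteopontin, had 3238 and 39285 reads, 13.1-fold higher (12.7 to 13.6).

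Of 23 pattern recognition and inflammasome genes, 21 were 2-fold higher and 1 lower, with a median of 2.15. TLR9, which senses DNA in endosomes, had 162 reads in estrus and 1313 in anestrus, 8.78-fold higher (7.46 to 10.4). TREM1, an amplifier of myeloid activation, had 6 and 190 reads, 34.3-fold higher (15.5 to 94.7). MYO1F, a leukocyte myosin, had 767 and 5445 reads, 7.69-fold higher. Of 19 phagocyte oxidase and Fc receptor genes, 18 were 2-fold higher, with a median of 1.94. The actin bundling protein LCP1 had 1703 and 10746. Of 18 leukocyte integrin and pan-leukocyte genes, 17 were 2-fold higher. SELPLG, the selectin ligand of leukocytes, had 467 and 4938 reads, 11.5-fold higher (10.4 to 12.6).

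The calgranulins, calcium-binding proteins carried by neutrophils and some macrophages, were among the 15 highest genes. S100A12 had 10 reads in estrus and 3401 in anestrus, 369-fold higher (200.2 to 769). S100A9 had 6 and 997 reads, 180.1-fold higher (82.4 to 492), and S100A8 had 7 and 635 reads, 98.3-fold higher (47.4 to 246). Other granulocyte genes had few reads in either library. LTF, lactoferrin, had 49 and 382 reads, while the granule genes MPO (0 and 12 reads), ELANE (1 and 2) and CAMP and MMP8 (0 in both), chosen after their values were seen, were at or near 0. A count of 0 reads allows up to 3 reads.

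Other leukocyte lists were mixed. Of 26 T and NK cell genes, 7 were 2-fold higher and 2 lower, with a median of 0.27. CD4 had 195 reads in estrus and 709 in anestrus, and the cytotoxic cell gene NKG7 had 1066 and 2651, while the T-bet gene TBX21, chosen after its values were seen, had 74 and 20. Of 12 B and plasma cell genes, 5 were higher and 2 lower. Among 5 mast cell genes, FCER1A, the alpha chain of the IgE receptor, was higher (17 and 199 reads) and HDC, which makes histamine, was lower (1285 and 151 reads). Red cell genes, a measure of the blood left in the tissue, were 2-fold lower for 3 of 4, with a median of -1.39.

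Chemokine genes were mostly on the higher side. Of 33 chemokine and receptor genes, 13 were 2-fold higher and 3 lower, with a median of 0.69. CXCL14 had 671 reads in estrus and 10698 in anestrus, 17.3-fold higher (16.0 to 18.7). CCL2, the monocyte attractant, had 142 and 1261 reads, 9.62-fold higher (8.09 to 11.5). CXCL2, a neutrophil attractant chosen after its values were seen, was lower with 219 and 39 reads. Of the interferon-stimulated genes, 1 of 24 was 2-fold higher, MX2 with 113 and 421 reads, and the median was 0.09, which turns negative when scaled to equal totals.

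Lysosomal genes were higher with few exceptions. Of 41 lysosomal hydrolases and membrane proteins, 22 were 2-fold higher, 1 was 2-fold lower and 38 lay above 0, with a median of 1.19. The cathepsins CTSH (8175 reads in estrus and 32499 in anestrus), CTSZ (7857 and 29743) and CTSC (3253 and 10975) were 4.31-, 4.10- and 3.66-fold higher. CTSL was the member 2-fold lower in anestrus, with 26462 and 6898 reads, 3.54-fold lower (3.45 to 3.64). LAMP3, a membrane protein of mature dendritic cell lysosomes, had 6 and 261 reads, 47.1-fold higher (21.4 to 129.6). Of 13 subunits of the vacuolar proton pump, which acidifies lysosomes, all lay above 0 and 6 were 2-fold higher, with a median of 0.94. ATP6V0C, a subunit of the membrane ring, had 5158 and 13016 reads. The transcription factors and mTORC1 scaffold genes of the lysosome differed less, with 1 of 19 2-fold higher and a median of 0.47. The macrophage and leukocyte genes above moved in the same direction as the lysosome list, and their part in it was not tested.

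Matrix genes differed by group. Across 7 lists of collagens, glycoproteins, proteoglycans, basement membrane, crosslinking enzymes, proteases and integrins, 53 of 164 genes were 2-fold higher and 27 2-fold lower, with a median of 0.37. The collagen list summed to 403211 normalised counts in estrus and 407887 in anestrus, with 6 of 28 genes higher and 4 lower. COL15A1 had 591 and 2187 reads, COL5A2 had 7382 and 21180, and COL13A1 had 399 and 139. The glycoprotein list, by contrast, summed to 174052 and 480575, and FN1 made up most of the rise. Of the 38 genes on that list, 13 were 2-fold higher and 7 lower, with a median of 0.23. FN1, fibronectin, had 7143 reads in estrus and 231444 in anestrus, 35.1-fold higher (34.3 to 36.0). TNC, tenascin C, had 298 and 8970 reads, 32.6-fold higher (29.1 to 36.7). IBSP, bone sialoprotein, had 36 and 879 reads, 26.5-fold higher (19.0 to 38.0). ECM1 had 731 and 10181 reads, 15.1-fold higher.

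Several matrix genes were lower. FBN2, a fibrillin chosen after its values were seen, had 552 reads in estrus and 68 in anestrus, 7.49-fold lower (5.81 to 9.78). LAMC3, a laminin gamma chain of basement membranes, had 17798 and 3707 reads, 4.43-fold lower (4.28 to 4.59). OMD, a small leucine-rich proteoglycan, had 1854 and 275 reads. The basement membrane list as a whole had 4 of 18 genes lower and 1 higher, the peroxidasin PXDN with 825 and 3751 reads.

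Proteases that cut the matrix and their inhibitors had more genes higher than lower. Of 26 genes, 11 were 2-fold higher and 3 lower, with a median of 0.71. MMP13, a collagenase, had 4 reads in estrus and 11902 in anestrus, the highest fold among the 10902 genes. MMP1, another collagenase, had 28 and 716 reads, 27.7-fold higher (19.0 to 42.0). MMP19 had 734 and 5074 reads, 7.49-fold higher (6.93 to 8.11). TIMP1, which inhibits these enzymes, had 7347 and 111595 reads, 16.5-fold higher (16.1 to 16.9). The gelatinase MMP2 (36313 and 37701 reads) and the membrane protease MMP14 (23591 and 28168), chosen after their values were seen, had more reads than MMP13 in both libraries and differed by less than 2-fold. A separate list of plasminogen activators and serpins had 3 of 13 genes 2-fold higher and 3 lower, with a median of -0.35. Its summed normalised count was 173269 in estrus and 81759 in anestrus. PLAUR, the urokinase receptor, is on that separate list and had 264 and 2050 reads, 8.42-fold higher (7.40 to 9.60). TFPI2, an inhibitor of serine proteases, had 12466 and 2971 reads.

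Integrins, the receptors by which cells hold the matrix, had 8 of 14 genes 2-fold higher and none 2-fold lower, with a median of 1.22. ITGB3 had 483 reads in estrus and 2703 in anestrus, 6.06-fold higher (5.50 to 6.70). ITGAV, its partner, had 2261 and 7877 reads, 3.78-fold higher. SDC1, a heparan sulfate proteoglycan of epithelia and plasma cells, had 620 and 5170 reads, 9.04-fold higher. CTHRC1, a secreted protein of activated fibroblasts, had 22 and 1192 reads, 58.7-fold higher (38.6 to 94.1). Crosslinking genes included PCOLCE2 (191 and 2155 reads) and the lysyl oxidase LOXL4 (325 and 2135). Of the fibroblast markers, 5 of 17 stromal genes were 2-fold lower and 1 higher, with a median of -0.60. Smooth muscle genes had 4 of 16 lower and 1 higher.

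**Figure D3:**
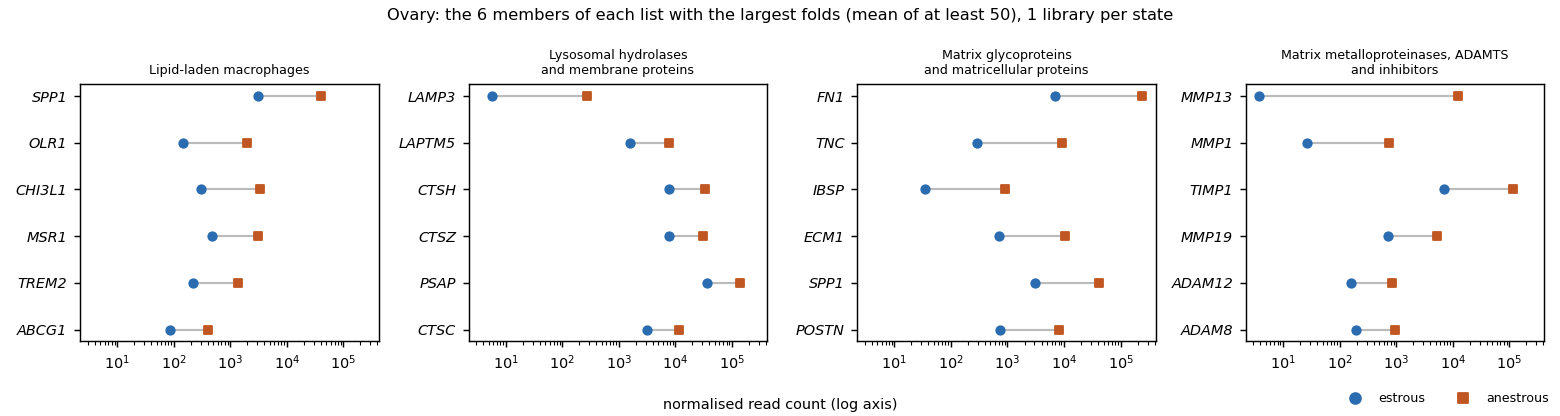
Normalised read counts (horizontal log axis) in the estrous (blue circles) and anestrous (orange squares) ovary library for the 6 genes with the largest folds in each of 4 lists: lipid-laden macrophages, lysosomal hydrolases, matrix glycoproteins, and matrix metalloproteinases with their relatives and inhibitors. Every anestrous point drawn lies right of its estrous point, MMP13 by the widest margin (4 against 11902 reads).

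Most listed glycolysis genes were higher, and the listed citrate cycle genes were not. Of 23 glycolysis and glucose uptake genes, 11 were 2-fold higher and none 2-fold lower, with a median of 0.85. The wider annotated pathway Glycolysis / Gluconeogenesis differed less. Of its 42 genes over the floor, 10 were 2-fold higher (23.8%), 3 lower and 25 above 0. Its median of 0.15 is smaller in size than the shift of -0.20 at equal totals. The 3 hexokinases that trap glucose differed in size of change. HK3, the isoform of myeloid cells, had 368 reads in estrus and 9049 in anestrus, 26.6-fold higher (24.01 to 29.7). HK2 had 46 and 1537 reads, and HK1, the ubiquitous isoform, chosen after its values were seen, had 2912 and 6647 reads, 2.47-fold higher. PFKFB3, which drives phosphofructokinase, had 176 and 736 reads, and PKM, pyruvate kinase, had 17686 and 45326. None of 20 citrate cycle genes was 2-fold different, and the median was 0.01, which turns negative when scaled to equal totals. Among 33 subunits of respiratory complex I, 2 were 2-fold lower and none higher, with a median of -0.12. The 13 genes encoded in mitochondrial DNA summed to 646835 normalised counts in estrus and 1010750 in anestrus, and their median was 0.72. ND2 was the member 2-fold higher (12452 and 32854 reads), and was also higher in the other tissues, with a log2 fold of 1.14 in hypothalamus and 1.52 in pituitary. ATP8, a subunit of ATP synthase, was the mitochondrially encoded gene 2-fold lower (1138 and 491 reads), and was lower in the other tissues too, with log2 folds of -1.13 and -1.71.

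Cytosolic ribosomal protein genes were lower, nearly all by less than 2-fold. Of 52, 46 lay below 0 and 1 was 2-fold higher, with a median log2 fold of -0.48, and the summed level went from 869230 to 616670 normalised counts. RPL34 had 16127 reads in estrus and 7638 in anestrus, a log2 fold of -0.96. Endoplasmic reticulum chaperones were higher, with 7 of 20 2-fold higher, 19 above 0 and a median of 0.89. The wider annotated pathway Protein processing in endoplasmic reticulum differed less. Of its 116 genes, 9 were 2-fold higher (7.76%), 2 lower and 82 above 0, with a median of 0.24. SDF2L1 had 79 and 469 reads, 6.43-fold higher (5.06 to 8.27). The integrated stress response list was split: TRIB3 had 41 and 898 reads, 23.7-fold higher (17.4 to 33.3), and CHAC1, which degrades glutathione, had 2669 and 279 reads, 8.83-fold lower (7.80 to 10.02). SOD3, the extracellular superoxide dismutase, had 118 and 3985 reads, 36.6-fold higher (30.5 to 44.3). SCD, which desaturates fatty acids, had 1408 and 11382 reads, 8.76-fold higher, while the fatty acid synthase FASN had 2012 and 949. Of 31 cell cycle genes, 27 lay below 0 with a median of -0.40, and 1 was 2-fold lower, AURKB with 276 and 109 reads.

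Signalling genes showed members on both sides, as did all genes with a mean of at least 10 (13.6% 2-fold higher and 10.7% lower). Of 23 WNT pathway genes, 7 were 2-fold higher and 3 lower. SFRP2, a secreted WNT binder, had 470 reads in estrus and 4133 in anestrus, 9.53-fold higher (8.66 to 10.5), and WNT5A had 687 and 121, 5.24-fold lower (4.31 to 6.41). WNT7B, a ligand among the 15 highest genes, had 8 and 367 reads. Of 28 BMP, GDF and TGF-beta genes, 6 were higher and 5 lower, with TGFBR1 at 1111 and 3684 reads and CHRDL1, a BMP antagonist, at 7870 and 2334. DLL4, a NOTCH ligand of endothelium, had 2228 and 541 reads, 3.80-fold lower, and was the member of its 14-gene list past 2-fold. Of 17 endothelial genes, 2 were 2-fold higher and 3 lower. ESM1, a proteoglycan of endothelial tip cells, had 24 and 580 reads, 26.2-fold higher (17.4 to 41.2). The lymphatic list had none of 7 past 2-fold.

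Immediate early genes, transcribed within minutes of a stimulus, had 5 of 17 2-fold lower and 2 higher. EGR1 had 17096 reads in estrus and 2133 in anestrus, 7.40-fold lower, and FOSL1 had 10 and 215, 23.3-fold higher (12.4 to 49.3). AREG, an EGF-like ligand of ovulating follicles chosen after its values were seen, had 9 and 87 reads. Clock genes had 3 of 15 lower and 2 higher, with PER1 at 4724 and 1365 reads and BHLHE40 at 969 and 4238. The labels do not give the time of day of sampling.

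Further genes among the 15 highest had few reads in estrus. MSMB, beta-microseminoprotein, a secreted protein of mucosal glands, was the exception, with 692 reads in estrus and 44848 in anestrus, 70.2-fold higher (65.2 to 75.8). The neurotrophin BDNF had 3 and 244 reads, a ratio of 88.1 (29.8 to 430.4). SLC1A1, a glutamate transporter, had 2 and 202 reads, a ratio of 109 (29.9 to 910.0). TUBB3, a beta tubulin known from neurons, had 21 and 957 reads, 49.4-fold higher (32.1 to 80.2). In hypothalamus, where neurons are plentiful, TUBB3 had 10766 reads in estrus and 13448 in anestrus.

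A few genes differed alike in all 3 tissues, with the same direction and 2-fold in each. They were 20 of the 1343 genes higher in the ovary and 17 of the 867 lower. No floor was set for them on the reads of the other tissues. Over all genes with a mean of at least 50, 2.34% in hypothalamus and 3.11% in pituitary were 2-fold different in either direction. Among the 15 highest the genes alike in all 3 tissues were SNCG, gamma-synuclein, and PPP1R11. SNCG had 0 reads in estrus and 466 in anestrus in the ovary, 168-fold higher with 3 reads in place of 0. The exact interval of its fold starts lower, at 136. Its log2 folds were 5.56 in hypothalamus and 8.64 in pituitary. PPP1R11, a phosphatase inhibitor whose symbol stands at 2 gene identifiers, had 0 and 150 reads at the higher of these, with 6.93 and 6.21 in the other tissues. Among the 15 lowest these were SQRDL, which oxidises sulfide in mitochondria, and TUBA1C, an alpha tubulin. SQRDL had 226 and 0 reads, 69.5-fold lower with 3 reads in place of 0, and the exact interval of its fold starts at 56.1. Its log2 folds in hypothalamus and pituitary were -6.31 and -4.96. TUBA1C had 5614 and 510 reads, with -3.83 and -2.40. For comparison, the log2 folds in hypothalamus and pituitary were -0.09 and 0.16 for STAR and -0.78 and -0.20 for FN1.

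The deposited ovary table also assigns genes to pathways, which share genes with the lists and with each other. Of 219 pathways with at least 20 genes over the floor, Ovarian Steroidogenesis had the lowest median log2 fold, -0.96, with 13 of 27 genes 2-fold lower and 2 higher. Bile secretion came next, with 15 of 35 lower and a median of -0.72. Ribosome had a median of -0.36 over 85 genes with 1 past 2-fold. At the other end, Intestinal immune network for IgA production had a median of 1.40 with 13 of 21 genes 2-fold higher, and Rheumatoid arthritis 1.23 with 28 of 51. Lysosome had 36 of 80 2-fold higher and 1 lower, with a median of 0.88, and Phagosome 40 of 89 higher and 6 lower, with 0.85. Proteasome had none of 24 past 2-fold.

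**Figure D4:**
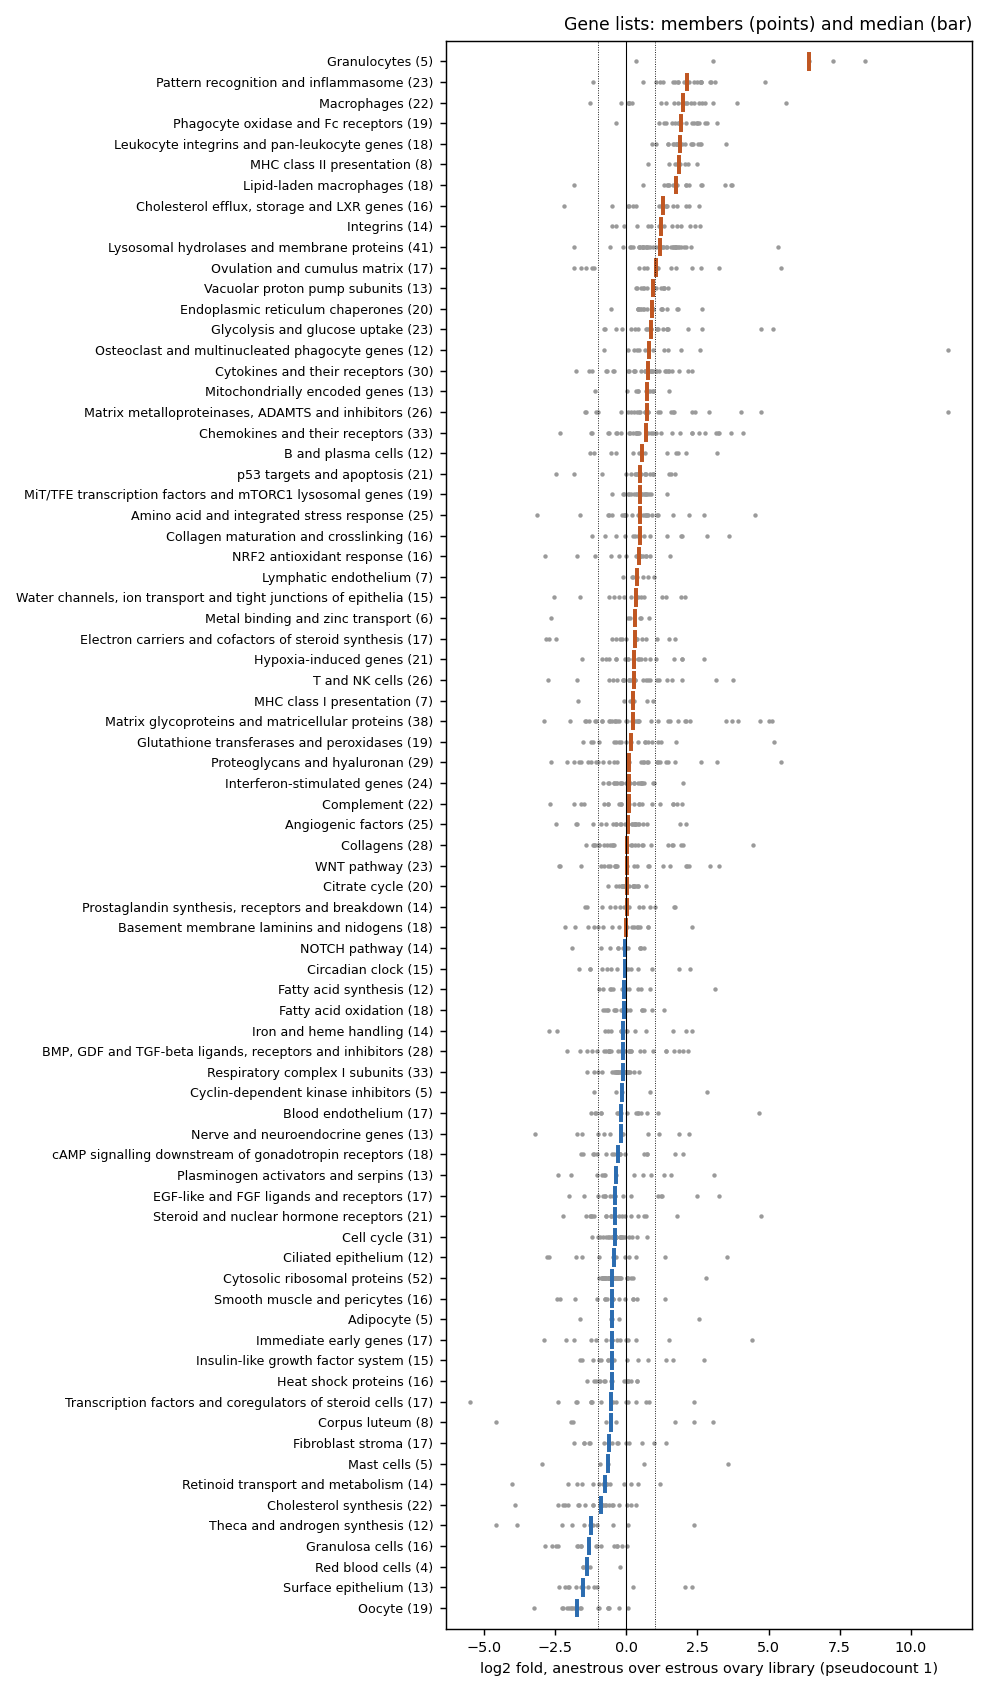
Log2 fold (anestrous over estrous ovary library, horizontal axis) of the genes of 76 lists with a mean of at least 10 (points, number in brackets), each list on a row of its own with its median as a bar, ordered by median. Oocyte genes lie at the bottom at -1.74, follicle and cholesterol synthesis lists near them, and macrophage, pattern recognition and granulocyte lists at the top. The granulocyte median of 6.42 rests on 5 genes and is 2.41 without the floor.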

How the data were processed

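The authors' deposited table for each tissue holds, per the file headers, a base mean for each gene and state, which is a normalised signal (reads over the library's size factor), and an adjusted p-value. Reads were aligned with TopHat2 2.1.0, per the submitters' processing notes. For the counting tool, strand setting, gene annotation and genome build nothing is stated, and overlapping and near-identical genes may share reads. Every value divided by its column's smallest value above 0 was whole within 0.01 read (100% of values in each column), and these reads are given. Of the 19465 genes, 14350 had a symbol, 12680 of them from the table and the rest by Ensembl identifier; in 542 of 9638 genes with both names the names differed.

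From these values log2 folds (pseudocount 1), exact 95% intervals, list medians over genes with a mean of at least 10, and counts at a mean of at least 50 were computed (Python 3.11.15, pandas 2.3.3, scipy 1.17.1). A list describes genes by counts and median only. The members and the 76 lists were chosen with earlier results of these data known. Named genes are the 15 highest and 15 lowest log2 folds among genes with a symbol and a mean of at least 50, the first 10 by reads in each library, and up to 6 members of a list with the largest fold at that floor. Any further gene is given as picked with its values known. The alternatives were equal totals, trimmed-mean scaling, a pseudocount of 5, other floors, 4-fold, the authors' adjusted p, and leaving out genes alike in all tissues. After seeing the data, a count test over the 6 libraries with tissue as a block was added (edgeR 4.0.16 and DESeq2 1.42.0). Some genes that the rule names are not reported here. Scripts were tested on simulated data.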

Additional observations from a re-analysis of the deposited data

Results flagged for a closer look

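Of 322 named genes 2-fold different in the ovary, 8 were 2-fold different in the opposite direction in another tissue. Only tissues where their mean normalised count was at least 50 were taken. Of the 8 genes, 5 were opposite in the pituitary. LYZ had a log2 fold of 5.63 in the ovary and of -1.08 in the pituitary (133 reads in estrus and 59 in anestrus). PRKG2, a cGMP-dependent protein kinase, had 5.97 in the ovary (2 and 175 reads) and -1.75 in the pituitary (269 and 75 reads). The interferon-induced gene MX2 had 2.004 and -1.22 (172 and 69 pituitary reads), and STRA6 had 1.202 and -1.01 (752 and 353 pituitary reads). STEAP4, a metalloreductase, had -2.43 in the ovary and 1.27 in the pituitary (38 and 88 reads). The other 3 were opposite in the hypothalamus. POSTN, periostin, had 3.50 in the ovary and -1.16 in the hypothalamus (84 and 36 reads). The cytokine receptor IL21R had 1.38 and -1.10 (103 and 46 hypothalamus reads). B2M, the light chain of MHC class I, had -1.71 and 2.18 (100 and 444 hypothalamus reads). In the pituitary B2M was lower, as in the ovary, with -2.84 (903 and 118 reads). Over all genes with a mean of at least 50, 2.34% in the hypothalamus and 3.11% in the pituitary were 2-fold different in either direction. With 1 library per tissue and state the difference between tissues was not tested.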

How the results depend on the processing

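No list median and no named gene with a log2 value of at least 1 in size changed sign under the alternatives that recompute it, but smaller medians did: 10 at equal totals, 2 with no floor (the luteal list from -0.54 to 0.36 and the prostaglandin list from 0.01 to -0.09) and 3 with a floor of 200. With no floor the granulocyte median went from 6.42 to 2.41. With a floor of 200 the T and NK cell median went from 0.27 to 1.13. The count of genes past 2-fold (2210, with 1343 higher and 867 lower) became 4757 with no floor (2534 and 2223), 1381 with a floor of 200 (880 and 501), 557 at 4-fold (395 and 162) and 107 when the authors' adjusted p also had to be at most 0.05 (92 and 15). Equal totals took 8 of 322 named genes and 2 of 16 lists with a value of at least 1 in size under 1, and left 16 in place of 33 pathways with a median of at least 0.5 in size. At equal totals named genes moved by -0.10 to -0.20 and list medians by -0.19 to -0.39. A pseudocount of 5 took 3 of those genes and 1 list under 1. In a test chosen after seeing the data, with tissue as a block over 6 libraries and 14444 genes, edgeR's quasi-likelihood test gave 0 genes at an adjusted p of 0.05 (542 at an unadjusted p under 0.05) and DESeq2 gave 49 (555 unadjusted); it asks for genes that differ alike in 3 tissues. That test pairs the 2 states by tissue. Its spread comes from how the difference between the states varies over the tissues, not from differences between sows. Its counts of genes therefore do not test anestrus against estrus within the ovary. Within the ovary no paired analysis was possible because it has 1 library per state and the labels give no replicate numbers. Reads limit the genes at the low end: 5070 genes with a read had a mean under 50 and were not counted, and 755 genes had 0 reads only in anestrus against 506 only in estrus.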

Other observations

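Genes outside the lists, chosen after their values were seen, lay on both sides. Among abundant genes lower in the anestrous ovary were LRP8, a lipoprotein and reelin receptor (26685 reads in estrus and 4947 in anestrus, 4.98-fold lower, 4.83 to 5.13), OBSL1, a cytoskeletal adaptor (21024 and 4898), RGS3, a regulator of G protein signalling (8685 and 1950) and IHH, a hedgehog ligand (588 and 121). TXNIP, a thioredoxin inhibitor, had 54544 and 24032 reads, 2.09-fold lower. Among those higher were MPEG1, a pore-forming protein of phagocytes (1717 and 21784 reads, 13.7-fold higher, 13.1 to 14.4), CAPG, an actin capping protein (1659 and 13043), the progranulin gene GRN (8069 and 28579) and the lysosomal thiol reductase IFI30 (2519 and 11692). ENPP1, which makes pyrophosphate, had 831 and 7937 reads, 10.4-fold higher (9.64 to 11.1), and NOX4, an oxidase of fibroblasts and endothelium, had 105 and 683.

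Large differences also stood at identifiers without a symbol, of which 3 were chosen after their values were seen. ENSSSCG00000029414 had 20 reads in estrus and 3133 in anestrus. ENSSSCG00000023945 had 0 and 402, and ENSSSCG00000023383 had 183 and 0. Of the 2210 genes past 2-fold, 262 had no symbol.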
